A study of Mus musculus with 4 samples.

Results

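The transcripts described are those of 41 tubulin and neuronal microtubule genes, all found by symbol among the 23874 genes of the deposited count table. They comprise 12 tubulins, 7 structural microtubule-associated proteins (MAPs), 4 genes of the doublecortin family and its partner Lis1, 4 stathmins, 5 collapsin response mediator proteins (CRMPs), 4 growth cone membrane proteins, 4 kinesin motors and the reticulon gene Rtn1. Their list was made with earlier results of these data known. By their usual expression, 26 were classed as neuronal and 15 as general, meaning used by most cells. RNA was sequenced from mouse engineered neural tissue (ENT), which was made by mixing neurospheres, cell balls grown from neural stem cells in suspension, with Matrigel. The EF group was exposed to a field of 150 mV/mm, daily for 30 min over 3 days, and was kept for 7 more days. The noEF group was the same kind of tissue without stimulation. All cultures were in DMEM/F12 with N2, B27 and 20 ng/ml of basic fibroblast growth factor, which keeps neural progenitors dividing. Each group had 2 libraries here, although the labels state 3 replicates a group. EF 2 is the second replicate by its title and has the library name E3. Strain, age and sex are not stated in the labels, nor is it stated that the replicates were separate cultures, so the p-values reflect the spread between these libraries alone, which may be technical. The series design text names suspensions of neural stem cells as controls, while the sample labels call both groups ENT.

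Microtubules are hollow tubes built from dimers of alpha and beta tubulin, and gamma tubulin starts their growth. Mammals have several genes for each, called isotypes, which encode nearly the same protein and differ mostly in the acidic tail at the carboxyl end. Tubb3 is the classic neuronal isotype, Tubb2a and Tubb2b are abundant in brain, and Tubb5, Tubb4b and Tuba1b are made by most dividing cells. In neurons, MAPs such as tau (Mapt) and Map2 stabilise microtubules in axons and dendrites, stathmins take tubulin out of the polymer, and kinesins carry cargo along it.

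Because isotypes are so alike, the ends of the coding sequences of 5 beta tubulins are printed here. These ends encode the acidic tails. Read in codons, the lines of Tubb2a and Tubb2b encode the same amino acids, so these stretches do not tell their proteins apart. Each line gives the last 60 coding bases up to the stop codon, 5′ to 3′, from GENCODE M21 transcripts on GRCm38. Capitals mark bases that did not align to the same base in Tubb5.
Tubb5: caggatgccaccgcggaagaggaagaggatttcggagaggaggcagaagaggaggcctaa
Tubb2a: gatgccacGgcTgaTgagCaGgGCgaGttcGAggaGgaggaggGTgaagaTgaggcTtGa
Tubb2b: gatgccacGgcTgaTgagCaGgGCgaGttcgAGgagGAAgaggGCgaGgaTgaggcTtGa
Tubb4b: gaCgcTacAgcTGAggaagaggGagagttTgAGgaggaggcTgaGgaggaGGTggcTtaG
Tubb3: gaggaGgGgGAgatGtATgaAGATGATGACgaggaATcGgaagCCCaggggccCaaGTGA
The ends of Tubb5 (chr17:35834982-35835041), Tubb2a (chr13:34074468-34074527), Tubb2b (chr13:34127471-34127530) and Tubb4b (chr2:25222308-25222367) lie on the minus strand. That of Tubb3 (chr8:123421623-123421682) lies on the plus strand, and each of the 5 stretches lies within 1 exon. Tubb2a, Tubb2b, Tubb4b and Tubb3 had 16, 19, 17 and 28 bases in capitals. Each count is against Tubb5 alone, so it does not show how far Tubb2a and Tubb2b differ from each other.

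Over whole coding sequences, Tuba1a and Tuba1b were 98.3% identical, Tuba1b and Tuba1c 97.9%, and Tubb2a and Tubb2b 96.5%. Tubb5 was 80.2% to 84.6% identical to the other beta isotypes in pairwise alignments. Transcripts were then searched for stretches of 100 bases that also occur, on either strand, in transcripts of another gene. Only 27.0% of the stretches of Tuba1b, 34.2% of those of Tuba1a and 46.6% of those of Tuba1c were found in no other gene. For Tubb2a, Tubb2b and Tubb4b the shares were 63.1%, 72.3% and 69.4%. All stretches of Tubb5, Tubb6, Tubb3 and Tubb4a were their own. How the authors' counting placed reads that fit several genes is not given in the sources used here, so the split among Tuba1a, Tuba1b and Tuba1c, and between Tubb2a and Tubb2b, is uncertain.

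Library totals ran from 33748880 to 34554537 counts, and 15548 to 15723 genes had a count in a library. The progenitor markers Fabp7 (2281 to 3553 CPM, counts scaled by library size), Vim (2177 to 2616 CPM) and Sox2 (291 to 380 CPM) were the highest of 10 neural stem cell markers, and Hes5 (4.79 to 7.10 CPM) and Prom1 (10.9 to 14.9 CPM) the lowest. The labels name stem cells as the cell type. Neuron markers ran from 0 to 213 CPM, with Nsg2 (178 to 213 CPM), Nsg1 (89.7 to 109 CPM) and Uchl1 (44.4 to 76.8 CPM) at the top. Rbfox3, the nuclear protein NeuN, had 0.672 to 1.86 CPM, and Nefh, Neurod2 and Slc17a6 had 0 counts in all 4 libraries. Summed over 21 neuron markers outside the 41 genes, the level was 449 and 466 CPM in EF against 503 and 488 CPM in noEF. The class called neuronal below is a class of genes and does not show how many neurons were present. In bulk RNA, fewer cells of a type and less RNA per cell cannot be told apart.

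Of the 12 tubulins, 4 were called higher in EF and 0 lower. Of the other 28 tested genes, 0 were called higher and 2 lower, where 3.83% and 4.99% of all tested genes were. In an edgeR quasi-likelihood fit to 14263 genes with p adjusted by Benjamini-Hochberg, 4 of the 41 genes were higher in EF at an adjusted p under 0.05. These were the tubulin genes Tubb5 (chr17:35833921-35838306, minus strand), Tubb6 (chr18:67390717-67402749, plus strand), Tuba1b (chr15:98931425-98934565, minus strand) and Tubb2a (chr13:34074274-34078007, minus strand), with GRCm38 coordinates. Over all tested genes, 3.83% were called higher. Mapt (chr11:104231390-104332090, plus strand) and Rtn1 (chr12:72211752-72409054, minus strand) were lower, 2 of 41, where 4.99% of all tested genes were called lower. The other 34 tested genes did not pass, and Stmn2 had no counts to test. The 6 called genes are 15.0% of the 40 tested, against 8.82% of all tested genes called in either direction. The median log2 fold change was 0.22 over the 12 tubulins and -0.11 over the other 28 tested genes, beside 0.01 over all tested genes. When only library totals set the scale, the called genes of the table shifted to 1138 higher and 505 lower, against 546 and 712. Among the 41 genes that scaling gave 7 higher and 1 lower. Leaving out a library gave 3 higher and 1 lower without EF 1, 3 and 4 without EF 2, 5 and 2 without noEF 1, and 5 and 4 without noEF 2.

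**Figure D1:**
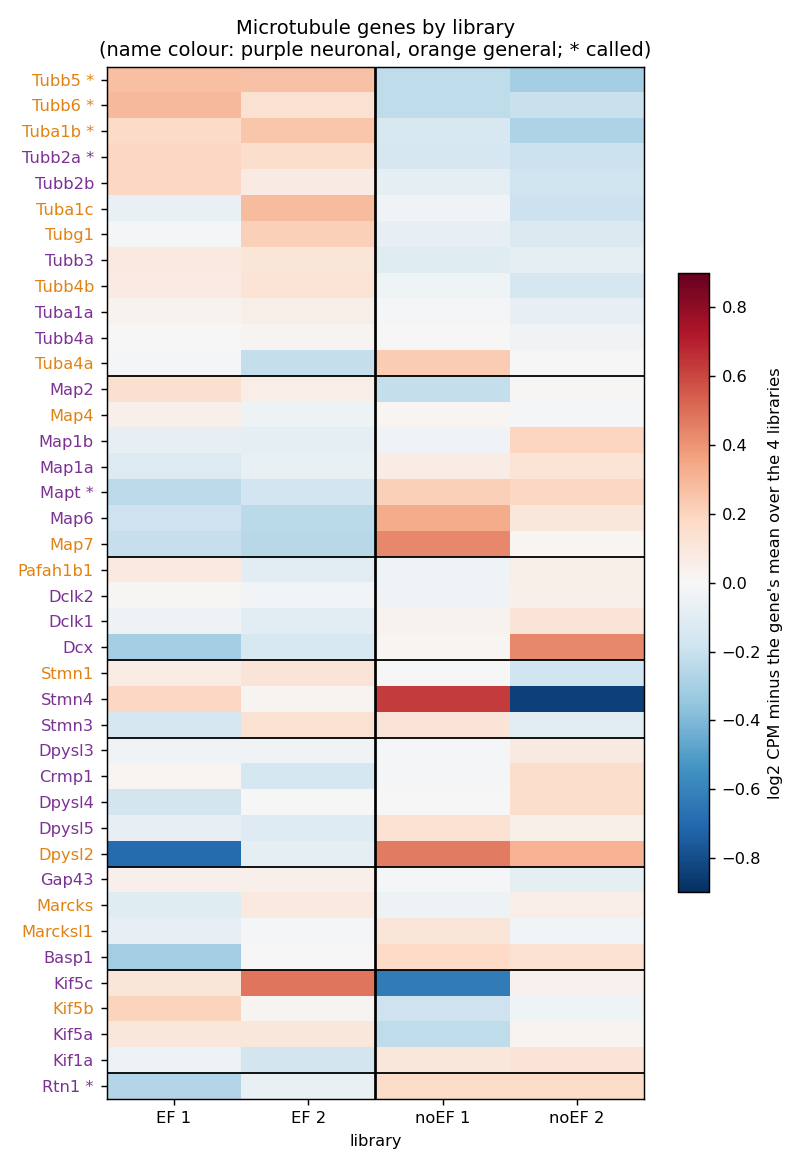
Heat map of the 40 tested genes (rows, grouped by role) in the EF and noEF libraries (columns), coloured by log2 CPM minus the mean of that gene over the 4 libraries, with stars on the 6 called genes. The upper rows, which are tubulins, are red in both EF libraries and blue in both noEF libraries for Tubb5, Tubb6, Tuba1b and Tubb2a, while Mapt and Rtn1 show the opposite.

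Among the beta tubulins, Tubb5 differed most. Its level was 1027 and 1023 CPM in the EF libraries, against 725 and 688 CPM in the noEF libraries. The groups did not overlap, and the replicates lay close together compared with the gap. Tubb5 was 1.45-fold higher (log2 fold change 0.54, SE 0.08, edgeR adjusted p = 7.00e-04), and it kept that call in all 13 alternatives run. Tubb6, an isotype of many non-neuronal tissues, had 198 and 177 CPM in EF against 138 and 140 CPM in noEF. That is a 1.35-fold rise (log2 0.43, SE 0.09, edgeR adjusted p = 0.00717), lost in 1 of the 13 alternatives, the fit without EF 1 (adjusted p = 0.0856). Tubb2a had 1091 and 1068 CPM in EF against 864 and 838 CPM in noEF, a 1.27-fold rise (log2 0.34, SE 0.08, edgeR adjusted p = 0.0132). Its call was lost with the replicate number as a block (adjusted p = 0.0517), without EF 1 (0.136) and without EF 2 (0.0561).

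The other beta isotypes had values on the same side without passing. Tubb2b, an isotype of the developing brain, had 1641 and 1515 CPM in EF against 1363 and 1275 CPM in noEF. The groups were apart, but the test missed the threshold (log2 0.26, SE 0.08, edgeR adjusted p = 0.0597). Tubb2b was called higher in 7 of the 13 alternatives, among them DESeq2 (adjusted p = 0.0228), limma-voom (0.0387), no filter (0.0207), library totals (0.0114) and the fit without noEF 1 (0.0488). Tubb4b had 228 and 235 CPM in EF against 210 and 195 CPM in noEF (log2 0.19, edgeR adjusted p = 0.181). Tubb3 was scarce, at 12.3 and 12.5 CPM in EF against 10.7 and 10.9 CPM in noEF (log2 0.19, SE 0.18, edgeR adjusted p = 0.558). Tubb4a, the isotype of mature brain and oligodendrocytes, had 21.9 and 22.2 CPM in EF against 21.9 and 21.4 CPM in noEF, and its groups overlapped. Counted together, 3 of 7 beta tubulins were called higher and 0 lower by edgeR, with 4 higher and 0 lower in DESeq2. At an unadjusted p under 0.05 there were 5 higher and 0 lower, where 11.3% of all tested genes were higher and 12.5% lower. All 7 had a log2 fold change above 0, and 6 had groups that did not overlap, where 27.6% of all tested genes were higher in EF without overlap and 26.8% were lower.

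**Figure D2:**
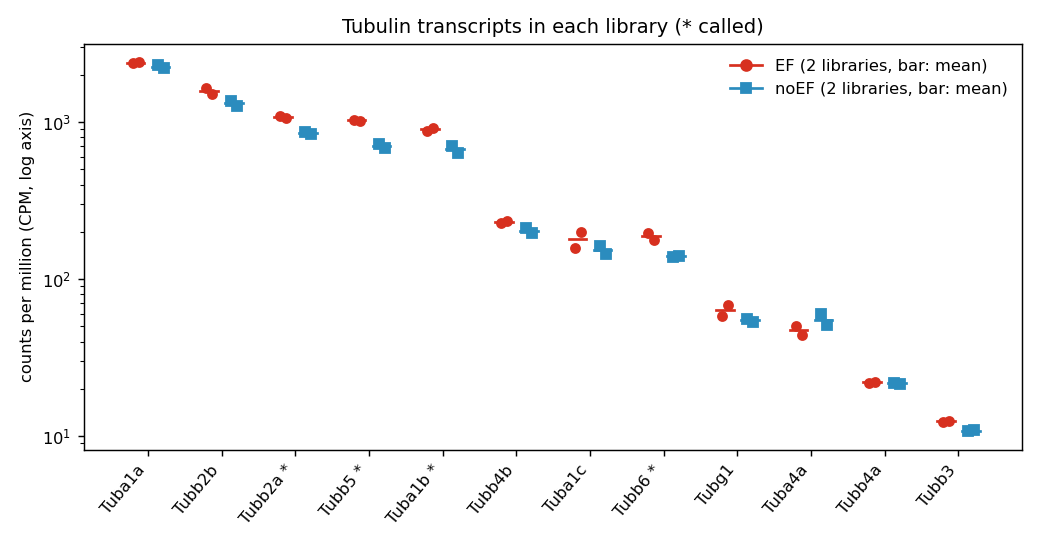
Level of each tubulin in CPM on a log axis, with EF libraries as circles left of noEF libraries as squares and a bar at each mean (n = 2 each). Tubb5 sits at 1027 and 1023 CPM in EF above 725 and 688 CPM in noEF, while Tubb3 and Tubb4a lie at the low end.

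Of the 4 alpha tubulins 1 was called, Tuba1b, with 0 lower and the same counts in DESeq2 and at an unadjusted p under 0.05. Over all tested genes, 3.83% were called higher, and 11.3% were higher at that unadjusted p. Tuba1b had 873 and 922 CPM in EF against 700 and 640 CPM in noEF. It was 1.34-fold higher (log2 0.42, SE 0.08, edgeR adjusted p = 0.00521) and kept the call in all 13 alternatives. Tuba1a, the main alpha isotype of the developing brain, had 2370 and 2401 CPM in EF against 2298 and 2201 CPM in noEF. Its groups were apart by a small margin, and it did not pass (log2 0.08, SE 0.08, edgeR adjusted p = 0.556). Tuba1c had 157 and 201 CPM in EF against 161 and 144 CPM in noEF, so its EF libraries lay on both sides of noEF 1 (log2 0.23, edgeR adjusted p = 0.256). Without EF 1 it was called higher (0.40, adjusted p = 0.0424), without EF 2 it was at 0.0465 and without noEF 2 at 0.15. Tuba4a was the single tubulin with a value below 0, at 50.4 and 43.8 CPM in EF against 59.5 and 50.8 CPM in noEF (log2 -0.23, SE 0.12, edgeR adjusted p = 0.265). Exons of Tuba4a overlap those of Stk16 on the opposite strand over 1379 bases, and exons of Tuba1a and Tuba1b overlap the gene model Gm49450 on their own strand. Tubg1, which encodes gamma tubulin, had 58.2 and 67.9 CPM in EF against 55.7 and 53.6 CPM in noEF (log2 0.21, SE 0.11, edgeR adjusted p = 0.265). None of the 12 tubulins changed sign in any of the 13 alternatives.

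Sums over isotypes do not depend on how reads were split among near-identical genes of the sum. They still depend on any reads dropped for fitting several genes, and on stretches shared with genes outside the sum. Of the 100-base stretches of Tuba4a, 46.7% also occur in Stk16. Summed, beta tubulins reached 4136 ± 117 CPM in EF tissue and 3251 ± 116 CPM in noEF tissue (SD, n = 2 each). That is 1.27-fold more in EF. Alpha tubulins reached 3509 ± 81.8 CPM in EF tissue and 3127 ± 129 CPM in noEF tissue, 1.12-fold more. Both sums were higher in 2 of 2 EF libraries than in either noEF library. The exact two-sided permutation test gave p = 0.333 for each sum, the smallest that 2 against 2 libraries can give.

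The isotype mixture differed within both pools. Levels were divided by the summed exon length of each gene and expressed as a share of the pool, so these are shares and not levels. Tubb5 made up 16.2% and 16.8% of the beta pool in EF, against 14.3% and 14.3% in noEF. Tubb2b made up 37.5% and 36.0% in EF, against 39.0% and 38.4% in noEF. Tubb2a held 35.8% ± 0.477 in EF and 35.6% ± 0.441 in noEF (SD, n = 2 each), with overlapping groups. Tubb3, the neuronal isotype, was 0.345% and 0.364% in EF against 0.377% and 0.403% in noEF, so its share lay below noEF in both EF libraries while its own level lay above. In the alpha pool Tuba1b held 25.0% and 25.6% in EF against 21.5% and 20.8% in noEF, and Tuba1a 70.6% and 69.2% in EF against 73.5% and 74.5% in noEF. Most 100-base stretches of Tuba1a and of Tuba1b also occur in other genes, among them Tuba1c, so these shares are uncertain. The size of a share also depends on the length used. By coding length Tubb5 held 24.4% and 25.3% of the beta pool in EF against 21.8% and 21.7% in noEF. Tubb2a then held a mean of 26.1% in EF and 26.2% in noEF. No test was run on shares.

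**Figure D3:**
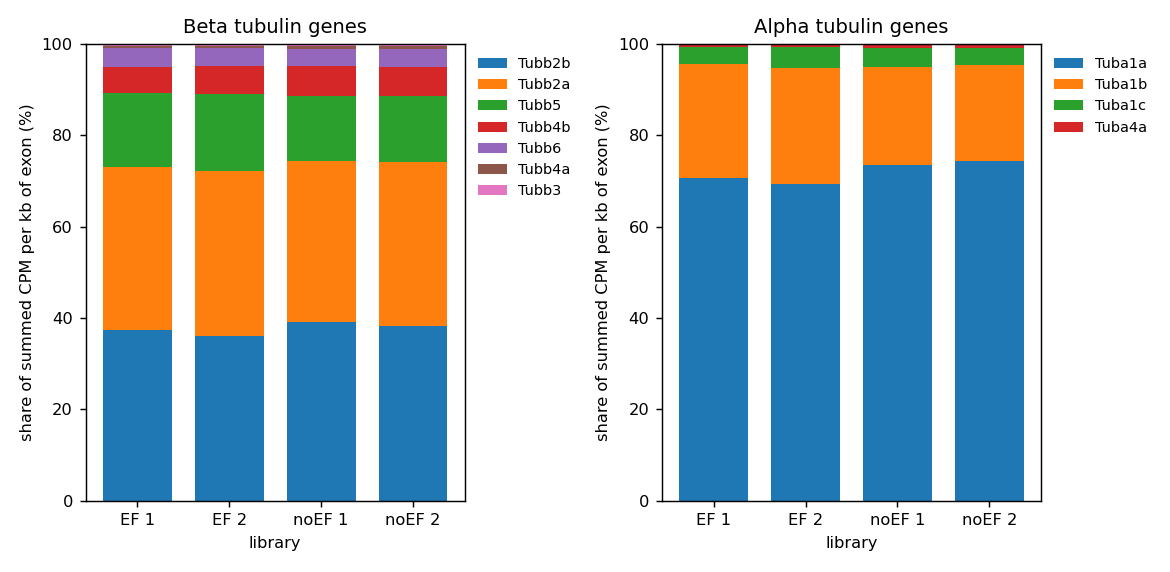
Stacked bars of the share (%) of each isotype in the summed CPM per kilobase of exon of the beta (left) and alpha (right) tubulin genes, one bar per library with EF left of noEF. Tubb5 takes 16.2% and 16.8% in EF against 14.3% in both noEF libraries, and Tubb2b, Tubb2a and Tuba1a fill most of each bar.

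Since several tubulins were higher together, their promoters were read from the RefSeq table on GRCm38.p6, which held 250 bases before and 50 bases after the start of 9 of the 12 tubulins. The promoters of Tubb5 (chr17:35838252-35838551, minus strand) and Tubb2a (chr13:34077959-34078258, minus strand) are shown because both genes were called higher, one general and the other neuronal. Capitals mark the CCAAT box, the GC box GGGCGG, and the motifs TTTGAA and TTTCGAA, searched on either strand.
Tubb5: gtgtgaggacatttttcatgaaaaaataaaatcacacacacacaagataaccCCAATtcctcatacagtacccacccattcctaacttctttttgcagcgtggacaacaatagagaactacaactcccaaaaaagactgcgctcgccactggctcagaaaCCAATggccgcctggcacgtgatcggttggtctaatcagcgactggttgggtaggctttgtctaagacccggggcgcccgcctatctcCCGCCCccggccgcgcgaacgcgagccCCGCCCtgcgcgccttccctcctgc
Tubb2a: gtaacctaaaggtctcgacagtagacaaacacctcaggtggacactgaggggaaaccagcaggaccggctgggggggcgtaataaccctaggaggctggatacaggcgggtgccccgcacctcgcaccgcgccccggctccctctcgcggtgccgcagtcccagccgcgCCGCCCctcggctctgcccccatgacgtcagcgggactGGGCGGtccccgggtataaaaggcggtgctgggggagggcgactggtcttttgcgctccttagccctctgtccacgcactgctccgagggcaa
CCAAT occurred in 5 of the 9 tubulin promoters and in 37.4% of 32851 promoters of the same length in the table. GGGCGG, the GC box, occurred in 7 of 9, against 35.7% of all promoters. TTTGAA occurred in 1 of 9 and TTTCGAA in 0 of 9, against 17.9% and 0.746% of all promoters. Of the 3 called tubulins with a promoter in the table, Tubb5, Tubb2a and Tuba1b, all 3 held GGGCGG and only Tubb5 held CCAAT. The GC box was also found in the promoters of Tuba1a, Tubb3, Tuba4a and Tubb4b, which edgeR did not call. Tuba4a was the single tubulin with a log2 fold change below 0 (-0.23). Tubb6, which was also called higher, had no promoter in the table. Outside the tubulins, the GC box lay in a promoter of Map1a, Map1b, Map2, Map4, Map7, Dclk2, Dpysl5, Crmp1, Basp1, Marcksl1, Kif5c and Rtn1. Of these, Rtn1 was called lower in EF. It was absent from the promoters of Dcx, Dclk1, Pafah1b1, Stmn3 and Kif1a. The GC box was therefore not particular to tubulins among the genes described. Whether the GC box bears on these differences was not tested. All of these motif counts are letter matches in a short window and show no binding.

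Of the 7 structural MAPs, Mapt was the single called gene, where 4.99% of all tested genes were called lower. Tau had 95.2 and 99.2 CPM in EF against 130 and 127 CPM in noEF. Both EF libraries lay below both noEF libraries, and Mapt was 1.32-fold lower (log2 -0.40, SE 0.09, edgeR adjusted p = 0.00976). Of 13 alternatives it lost the call in the fit without EF 1 (adjusted p = 0.0756). Map2, the dendritic MAP, had 529 and 497 CPM in EF against 411 and 481 CPM in noEF. The groups were apart by a gap smaller than that between the noEF libraries, and it did not pass (log2 0.20, SE 0.09, edgeR adjusted p = 0.189). Without noEF 2 it was called higher (0.32, adjusted p = 0.0402), and without noEF 1 it was at 0.0927. Map6, a protein of cold-stable microtubules, had 19.9 and 19.1 CPM in EF against 28.5 and 24.3 CPM in noEF (log2 -0.44, SE 0.14, edgeR adjusted p = 0.0755), and was called lower without noEF 2 (-0.55, adjusted p = 0.0339). Map1a and Map1b, long MAPs of dendrites and growing axons, had log2 fold changes of -0.19 and -0.16 and adjusted p-values of 0.320 and 0.458 in edgeR. Map4, the general MAP, was level at 287 ± 12.4 CPM in EF tissue and 286 ± 5.46 CPM in noEF tissue (SD, n = 2 each). Map7, a kinesin-1 cofactor, was at -0.47 (SE 0.23, edgeR adjusted p = 0.227) on under 10 CPM.

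The doublecortin family gave 0 calls in edgeR, in DESeq2 and in limma-voom. It had 0 higher and 1 lower at an unadjusted p under 0.05, where 11.3% of all tested genes were higher and 12.5% lower. The lower gene was Dcx, the microtubule protein of migrating young neurons. It had 14.1 and 15.7 CPM in EF against 17.6 and 23.4 CPM in noEF. The noEF 2 library lay furthest from the others (log2 -0.46, SE 0.17, edgeR adjusted p = 0.109), so leaving out 1 library moved the value and the call. Without noEF 1 Dcx was called lower (-0.65, edgeR adjusted p = 0.0317), and without noEF 2 it was at -0.24 (adjusted p = 0.530). Dclk1, the related kinase, had 301 and 289 CPM in EF against 317 and 335 CPM in noEF (log2 -0.15, SE 0.08, edgeR adjusted p = 0.300). Dclk2 had 170 ± 2.68 CPM in EF tissue and 172 ± 6.62 CPM in noEF tissue, and Pafah1b1, which encodes the dynein regulator Lis1, 250 ± 22.5 CPM in EF tissue and 252 ± 11.8 CPM in noEF tissue (SD, n = 2 each).

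The stathmins also gave 0 calls in edgeR, in DESeq2 and in limma-voom. They had 0 at an unadjusted p under 0.05, where 11.3% of all tested genes were higher and 12.5% lower. Stmn1, the general stathmin of dividing cells and progenitors, had 189 and 195 CPM in EF against 180 and 160 CPM in noEF. Its groups were apart, but the difference was not called (log2 0.17, SE 0.09, edgeR adjusted p = 0.250). Stmn3 had 36.9 and 45.0 CPM in EF against 44.4 and 38.2 CPM in noEF. Stmn4 had 3.70 and 3.30 CPM in EF against 5.01 and 1.81 CPM in noEF, so the noEF libraries lay on both sides of EF. Stmn2, which neurons make in quantity as axons grow, had 0 counts in all 4 libraries. A count of 0 allows up to 3 counts, or 0.0840 to 0.0921 CPM in a library.

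All 5 CRMPs, which link semaphorin signals to the tubulin of growth cones, had a log2 fold change below 0, except that Dpysl3 turned to 0.02 with library totals, and edgeR called 0 of them. At an unadjusted p under 0.05 there was 1 lower and 0 higher, where 12.5% of all tested genes were lower and 11.3% higher. In limma-voom 0 were called, and DESeq2 called 1 lower. That gene was Dpysl2, with 47.9 and 72.9 CPM in EF against 107 and 96.3 CPM in noEF. The EF libraries differed from each other by more than the distance of EF 2 from noEF 2 (log2 -0.75, SE 0.23, edgeR adjusted p = 0.146). Its value was -1.09 without EF 2 (adjusted p = 1.72e-05) and -0.48 without EF 1 (adjusted p = 0.027). Dpysl3 had 291 and 292 CPM in EF against 296 and 315 CPM in noEF (log2 -0.07, SE 0.08, edgeR adjusted p = 0.681). Crmp1, Dpysl4 and Dpysl5 had -0.14, -0.16 and -0.19, with adjusted p-values of 0.568, 0.550 and 0.602 in edgeR.

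Growth cone membrane proteins were likewise not called in edgeR, DESeq2 or limma-voom (0 of 4). They had 1 lower and 0 higher at an unadjusted p under 0.05, where 12.5% of all tested genes were lower and 11.3% higher. Gap43, the growth-associated protein of regrowing axons, had 136 and 136 CPM in EF against 131 and 125 CPM in noEF (log2 0.09, SE 0.08, edgeR adjusted p = 0.575). Basp1 had 76.6 and 94.9 CPM in EF against 108 and 105 CPM in noEF, with the EF libraries further apart than EF 2 from noEF 2 (log2 -0.31, SE 0.11, edgeR adjusted p = 0.0857). It was called lower without EF 2 (-0.47, adjusted p = 0.0197) and without noEF 2 (-0.33, adjusted p = 0.0485), and was at -0.16 (adjusted p = 0.615) without EF 1. Marcks, a substrate of protein kinase C, had 910 and 1041 CPM in EF against 950 and 1022 CPM in noEF, and its groups overlapped. Marcksl1 had 520 and 542 CPM in EF against 589 and 536 CPM in noEF.

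No kinesin was called in edgeR, DESeq2 or limma-voom. Kinesins had 1 higher and 1 lower at an unadjusted p under 0.05, where 11.3% of all tested genes were higher and 12.5% lower. Kif5b, the general kinesin-1 heavy chain, had 241 and 214 CPM in EF against 184 and 204 CPM in noEF (log2 0.22, SE 0.09, edgeR adjusted p = 0.147). Kif1a, the motor of synaptic vesicle precursors, had 225 and 208 CPM in EF against 251 and 254 CPM in noEF (log2 -0.22, SE 0.08, edgeR adjusted p = 0.119). The neuronal kinesin-1 genes Kif5a and Kif5c stayed under 6 CPM. They had log2 fold changes of 0.195 and 0.56, with adjusted p-values of 0.760 and 0.322 in edgeR. The value of Kif5c was the highest of the 41 genes. Both genes were higher in EF without overlap, as were 27.6% of all tested genes. SEs of 0.30 and 0.33 make differences of this size hard to detect. Rtn1, a reticulon of the neuronal endoplasmic reticulum, had 182 and 208 CPM in EF against 244 and 245 CPM in noEF. It was 1.26-fold lower (log2 -0.33, SE 0.09, edgeR adjusted p = 0.0319). The call did not hold with library totals (adjusted p = 0.0903), with the replicate number as a block (0.0683), without EF 1 (0.343) or without noEF 1 (0.053).

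The neuronal and general genes of the 41 had medians on either side of 0. Of 26 neuronal genes, 25 of them tested, 1 was higher and 2 were lower. Their median log2 fold change was -0.07, which turned to 0.02 with library totals. Of 15 general genes 3 were higher and 0 lower, with a median of 0.17. The edgeR shares of all tested genes were 3.83% higher and 4.99% lower. In DESeq2 the neuronal genes had 2 higher and 2 lower and the general genes 3 higher and 1 lower. Among all 17318 genes in that fit, 508 were higher and 806 lower. At an unadjusted p under 0.05 the neuronal genes had 3 higher and 6 lower and the general genes 5 higher and 1 lower, where 11.3% of all tested genes were higher and 12.5% lower. Inside the tubulins, the medians were 0.19 for the 5 neuronal isotypes and 0.23 for the 7 general ones. Outside the tubulins they were -0.15 for the 20 tested neuronal genes and -0.01 for the 8 general genes. With genes used by both kinds of cell left out, the medians were -0.02 for 17 neuronal genes and 0.21 for 11 general genes. Neither the lists nor these divisions were tested as sets.

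**Figure D4:**
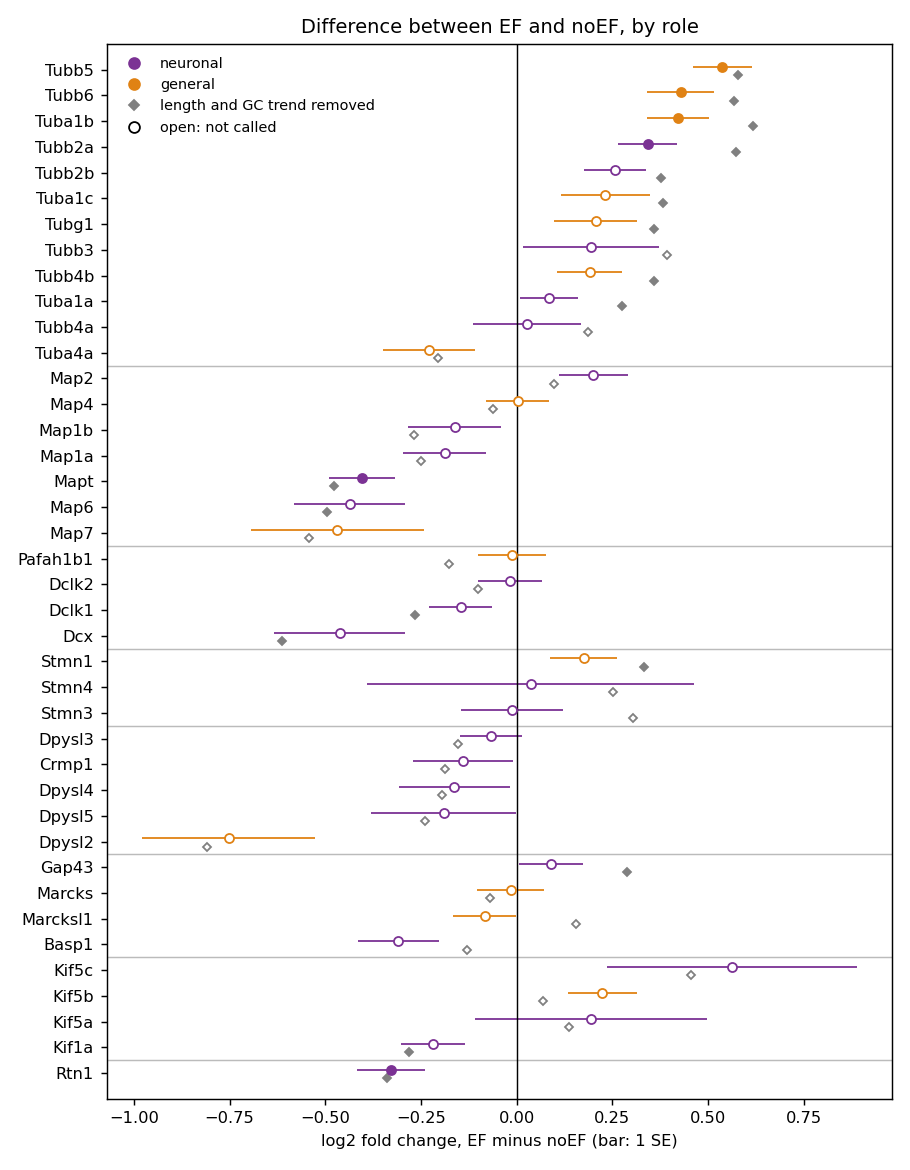
Log2 fold change (EF minus noEF) of the 40 tested genes by role, with bars of 1 SE, filled circles for called genes and purple or orange for neuronal or general. Grey diamonds give the same after each library's trend with gene length and GC content was removed, where tubulins lie further to the right and Mapt, Dcx and Dclk1 further to the left.

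Gene length and base composition touched these results. With each library's trend of log2 CPM on exon length and GC content removed, 11 of the 41 genes were higher and 6 lower, against 4 and 2, while 4.16% of all tested genes were called higher and 6.21% lower. The 9 tubulins then called were Tubb5, Tubb6, Tuba1b, Tubb2a, Tubb2b, Tuba1c, Tubb4b, Tuba1a and Tubg1. Tuba1b was at 0.62 (SE 0.06) in place of 0.42, and Tuba1a at 0.28 (SE 0.07, edgeR adjusted p = 0.0198) in place of 0.08. Gap43 and Stmn1 were also called higher (0.29 and 0.33). Dcx (-0.61), Map6 (-0.50), Kif1a (-0.28) and Dclk1 (-0.27) joined Mapt and Rtn1 among the lower genes. The longest transcripts had 1598 to 2840 bases in the 12 tubulins and 4252 to 11825 bases in the 7 MAPs. No called gene lost its call in this fit.

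In the order of levels, in CPM per kilobase of exon, tubulins held the first 4 ranks and also ranks 20, 27, 28 and 29 (Tubg1, Tuba4a, Tubb4a and Tubb3). Tuba1a led at 1323 ± 11.8 in EF and 1248 ± 38.0 in noEF (SD, n = 2 each). Tubb2b followed at 688 ± 39.1 in EF and 575 ± 27.1 in noEF, and Tubb2a at 670 ± 10.1 in EF and 529 ± 11.7 in noEF. Tubb2b and Tubb2a did not differ beyond their spread in EF. Tuba1b, Marcksl1, Tubb5 and Marcks came next, before a drop to Tubb4b at 111 ± 2.68 in EF and 97.2 ± 5.17 in noEF. Below them, Map2 ranked 17, Mapt 26, Tubb3 29 and Dcx 36 of 41, and Kif5a stood last among the genes with counts. Transcripts of Map2 differ much in length, and with the longest transcript in place of summed exons it ranked 13. By coding length Marcks and Marcksl1 ranked 3 and 4, above Tubb2a, Tubb5 and Tuba1b at 5, 6 and 7.

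Among other microtubule genes, a few were called in either direction. In 5 lists with 113 genes in the table, of which 108 were tested, 3 were higher and 4 lower, where 3.83% of all tested genes were higher and 4.99% lower. The median log2 fold change was 0.03. Clip3, a linker of microtubules to the Golgi (221 ± 3.96 CPM in EF tissue and 305 ± 14.3 CPM in noEF tissue; log2 -0.46, edgeR adjusted p = 0.00293), was lower. So were Map1lc3a and Map1lc3b, light chain genes that also serve autophagy (-0.43 and -0.32), and Arl2, a GTPase of tubulin folding (-0.50). The severing ATPase gene Fignl1 (0.82), the dynein light intermediate chain gene Dync1li2 (0.38) and Tubgcp4 of the gamma-tubulin ring complex (1.17) were higher. Tubgcp4 had 16.2 and 8.28 CPM in EF against 5.01 and 5.92 CPM in noEF, so its EF libraries lay far apart. Without EF 1 the 113 genes gave 0 higher and 1 lower, and without noEF 2 they gave 8 higher and 10 lower. Without EF 2, 5 were higher, and without noEF 1, 1 was lower. Of 24 tested genes for tubulin folding and modification, 17 had a value below 0, as did 6969 of all 14263 tested genes. Besides Arl2, the single called gene of the 24, the 17 included Svbp (-0.45), Ttll1 (-0.42) and Sirt2 (-0.23). With the length and GC trend removed, Arl2 was at -0.44, Svbp at -0.12, Ttll1 at -0.35 and Sirt2 at -0.25. Slain1 (0.31), Camsap2 (0.25), Tubgcp3 (0.35) and Nedd1 (0.49) lay above 0 without passing, and Mzt2 (-0.32), Tppp3 (-0.77), Cdk5 (-0.21), Klc4 (-0.40), Dynll1 (-0.34) and Dctn2 (-0.26) below it.

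Among 20 mitotic microtubule genes, 13 were higher in EF and 0 lower in edgeR, with 19 higher and 0 lower at an unadjusted p under 0.05 and 13 higher and 0 lower in DESeq2. Their median log2 fold change was 0.67. Over all tested genes, 3.83% were called higher and 4.99% lower by edgeR, and the shares at an unadjusted p under 0.05 were 11.3% and 12.5%. Prc1, a crosslinker of the spindle midzone, had 101 ± 4.30 CPM in EF tissue and 56.5 ± 6.68 CPM in noEF tissue (log2 0.83, SE 0.10, edgeR adjusted p = 2.23e-04), and Kif4, Ckap2l and Ckap2 were at 0.93, 0.90 and 0.69. Without EF 1, 8 of the 20 were higher. The median of the 12 tubulins, 0.22, is smaller than that of this list, and no tubulin reached it. Values of other cell classes that differed between the same libraries stand beside the tubulin result. Summed over 10 proliferation markers, of which 9 were called higher, the level was 1300 and 1221 CPM in EF against 786 and 776 CPM in noEF, with Top2a at 1.03, Mki67 at 0.69 and Ccnb1, Rrm2 and Mcm6 also higher. Over 10 astrocyte markers, of which 6 were called lower, it was 12490 and 12580 CPM in EF against 17630 and 16900 CPM in noEF, with Gfap at -1.45 and Gja1, Clu and Apoe also lower. The neural stem cell markers summed to 5098 and 5409 CPM in EF against 6871 and 6492 CPM in noEF, with Fabp7 and Sox1 lower of 10. Oligodendrocyte lineage markers summed to 2476 and 2823 CPM in EF against 2597 and 2447 CPM in noEF, with Gpr17 and Pdgfra lower, Olig2 at 0.09 and Enpp6 not called. The part of these differences in the tubulin result was not tested.

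Neuron markers outside the 41 genes gave 0 calls of 16 tested in edgeR, 1 lower in DESeq2 and 0 in limma-voom. At an unadjusted p under 0.05 there were 1 higher and 4 lower of the 16, where 11.3% of all tested genes were higher and 12.5% lower. Ina, Uchl1, Syt1 and Nefm had log2 fold changes of -0.66, -0.50, -0.48 and -1.78 with adjusted p-values of 0.0501, 0.0509, 0.0631 and 0.102 in edgeR. Syn1 and Rbfox3 were at -0.19 and -0.18. Nefm stayed at or under 1.84 CPM, and Uchl1 was at -0.26 with the length and GC trend removed. Of the 16, 10 had a value below 0 and 6 a value above 0. Those above 0 included Elavl4 (0.34), Nsg1 (0.24), Elavl3 (0.14) and Gad1 (0.10), none of them called. The median of the 16, -0.18, is near that of the neuronal genes outside the tubulins, -0.15. Of 7 microglia and macrophage markers 6 were at 0 in every library, and P2ry12 stayed at or under 1.07 CPM. Fibroblast and mural markers summed to 10.1 and 5.59 CPM in EF against 4.67 and 4.46 CPM in noEF, with Acta2 called higher (1.17) and Col1a1, Pdgfrb and Rgs5 under 1 CPM.

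**Figure D5:**
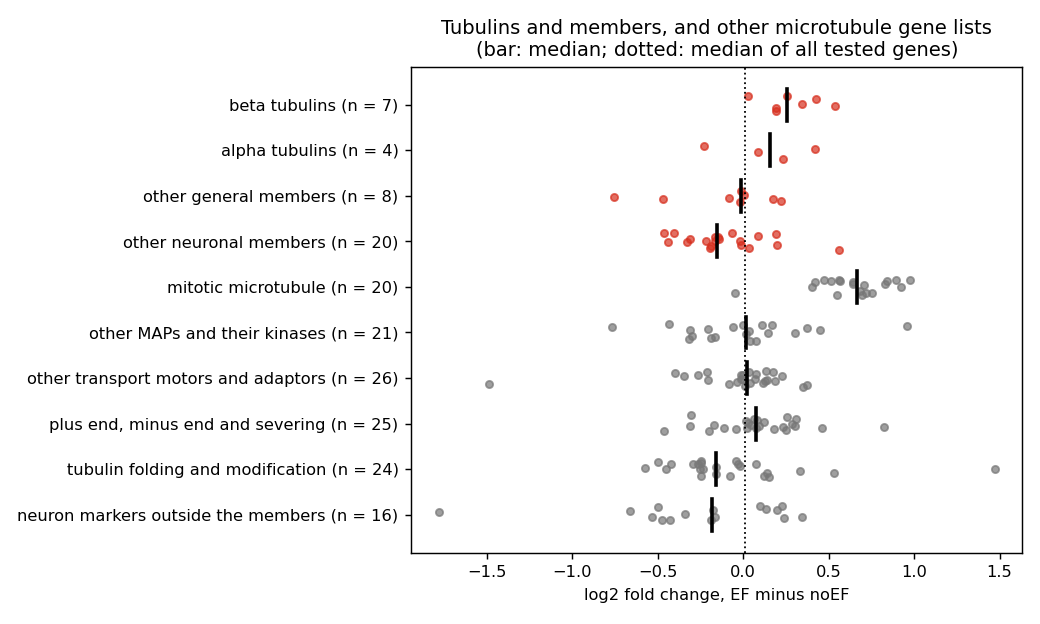
Log2 fold change (EF minus noEF) of each tested gene, in red for the tubulins and the other genes of the 41 and in grey for further microtubule lists and neuron markers, with a bar at each median and a dotted line at the median of all tested genes. The medians are 0.26 for beta tubulins, 0.16 for alpha tubulins, -0.15 for other neuronal genes and 0.67 for mitotic microtubule genes.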

How the data were processed

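RNA of 4 libraries was measured, 2 of stimulated and 2 of unstimulated engineered neural tissue. The authors deposited a table of whole-number read counts per gene, 23874 genes in all, of which 6556 had no count. Per the labels' protocols, poly(A) RNA was copied from random hexamers and amplified by PCR, with no strand step described. Per the submitters' processing notes, HISAT2 2.0.4, StringTie 2.2.1, DESeq2 1.44.0 and GRCm38 were used. The sources used here do not give the counting tool, its handling of reads that fit several genes, the annotation or the strand setting.

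The counts were tested with edgeR 4.0.16 in R 4.3.3 (quasi-likelihood, robust, TMM scaling, filterByExpr with a minimum count of 10 and a minimum total of 15), with Benjamini-Hochberg adjustment over 14263 genes and a threshold of 0.05. CPM values used the same scaling. SEs are of the fitted log2 fold changes. Library totals of 33748880 to 34554537 counts leave small counting errors for most of the 41 genes, and floors cover counting error only. Replicates of a group differed by more than sampling noise (chi-square per degree of freedom 17.4 in EF and 18.3 in noEF), so none was a copy. The deviations of same-numbered libraries had a correlation of -0.0898, with 2 pairs, so the numbers were not taken to pair the libraries. They come from the sample titles.

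The 13 alternatives were: 2 scalings, 2 filters, DESeq2 1.42.0, limma-voom (limma 3.58.1), a replicate block, a length and GC correction with and without the block, and each library left out, where the lone library of a group is assumed to vary like the other group. A stricter class split and other gene lengths were tried for the medians and shares. For the length and GC correction, 13438 tested genes had both values and splines with 4 degrees of freedom were used. Lengths, overlaps and sequences came from GENCODE M21, in which 22022 identifiers matched, and promoters came from RefSeq, with 26 of the 41 genes matched. Sequences were aligned with Biopython 1.88. The scripts were tested on simulated data. The members, classes and lists were chosen with earlier results of these data known. Values in every library are given for called genes, for the gene with the highest mean CPM in each role, for Tubb3, Map2, Mapt and Dcx, and for further genes of the 41. From each other list the 4 genes with the smallest p were named, plus Rbfox3, Syn1, Mki67, Gfap and Olig2, except that some items are not reported here.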

Additional observations from a re-analysis of the deposited data

How the results depend on the processing

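With 2 libraries a group, the counts of called genes depend on single libraries, on scaling and on the treatment of length and GC content, and the causes were not tested. Of all genes, 546 were higher and 712 lower. The higher count was 1138 with library totals, 915 with no filter and 308 with the block and the length and GC correction, and the lower count was 1203 with no filter and 460 with the block and that correction. Leaving out single libraries gave 217 to 790 higher and 337 to 1065 lower. Of the 41 genes, 4 were higher, against 7 with library totals, 11 with the length and GC correction, 8 with that and the block, and 3 to 5 with a library left out. The lower count of 2 became 1 with library totals, 5 with no filter, 1 with the block, 6 with the length and GC correction and 1 to 4 with a library left out. Of other microtubule genes, 3 higher became 7 with library totals, 7 with no filter and 0 to 8 with a library left out. The 4 lower became 10 with no filter, 7 in DESeq2, 7 with the length and GC correction, 2 with that and the block, and 1 to 10 with a library left out. Mitotic genes numbered 8 to 15 with a library left out. The median of neuronal genes, -0.07, was 0.02 with library totals, -0.13 with the length and GC correction, -0.13 with that and the block, -0.0165 in the strict split and -0.11 to -0.0571 with a library left out. The median of general genes, 0.17, was 0.26 with library totals, 0.21 in the strict split and 0.0774 to 0.15 with a library left out.

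Genes whose log2 fold change changed sign were all uncalled. With library totals Dclk2 was at 0.0699, Pafah1b1 at 0.0739, Stmn3 at 0.0745, Marcks at 0.0703, Dpysl3 at 0.02 and Marcksl1 at 0.0035. Map4 was at -0.0019 with DESeq2's size factors in edgeR and at -0.0009 in DESeq2. With the length and GC correction Map4 was at -0.0627, Stmn3 at 0.31 and Marcksl1 at 0.155, and with the block as well they were at -0.0621, 0.30 and 0.1547. With a library left out, Map4 ran from -0.0421 to 0.047, Dclk2 from -0.0539 to 0.0204, Pafah1b1 from -0.11 to 0.0774, Stmn3 from -0.16 to 0.12, Stmn4 from -0.52 to 0.95 and Marcks from -0.11 to 0.0778.

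With the replicate number as a block, 410 genes were higher and 568 lower, and of the 41 genes 3 were higher and 1 lower, with Tubb2a and Rtn1 no longer called. The numbers are those of the sample titles. EF 2 has the library name E3, so the library names do not share that number, and the block and the calls lost under it rest on the titles alone. The libraries share only a number, with a correlation of -0.0898 between same-numbered deviations over 2 pairs.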
